A study of Mus musculus with 9 samples.

Results

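The transcript levels of 10 genes known from lipid-associated macrophages were followed through the livers of 9 mice. The genes were Gpnmb, Trem2, Tyrobp, Cd9, Cd63, Spp1, Lpl, Fabp5, Lgals3 and Itgax, which were picked by symbol and matched through their Entrez Gene identifiers to 10 of the 17846 genes listed for each library. Lipid-associated macrophages are cells that gather around dying, fat-laden cells in adipose tissue and in the steatotic liver, take up lipid and debris, and carry the surface receptor TREM2. TREM2 has no signalling tail of its own and passes its signal through the adaptor TYROBP, also called DAP12, to the kinase SYK. The other members include lysosomal and endosomal membrane proteins (GPNMB, CD63 and the surface tetraspanin CD9), proteins of lipid handling (LPL and FABP5), secreted proteins that bind matrix and sugars (SPP1 and LGALS3) and the integrin chain ITGAX, known as CD11c. None of them belongs to macrophages alone, and Spp1 and Cd9, for example, are also made by bile duct cells.

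Liver RNA was sequenced from 3 control mice on a normal diet, 3 mice with non-alcoholic steatohepatitis (NASH) induced by an Atherosclerotic (Ath) diet, which is rich in cholesterol and contains cholate, and 3 mice that received the Ath diet and aerobic exercise (NASH+Exercise). The NASH mice had the Ath diet for 20 weeks in all and stayed sedentary, and the NASH+Exercise mice began a treadmill training of 8 weeks after 12 weeks of the same diet, at 20 weeks of age. All were wild-type (WT) male C57/BL mice, fasted overnight before the liver was taken, and the model is induced by diet without a transgene. The sequenced mice were a part of larger groups, and no exercised mice on the normal diet were among the libraries.

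Each library held between 20086004 and 22495449 estimated read counts, and 13620 genes had enough counts to be tested. Values of a gene in different mice are given as CPM, the reads of the gene relative to a fixed library total, after scaling by the TMM method. Levels of different genes are set side by side as TPM, which are also corrected for transcript length. TPM are not scaled by TMM, so a change in TPM can differ from the log2 fold change. The ratios to macrophage markers below use CPM without a length correction, and are compared between mice for each gene rather than between genes. The summed TPM of 8 hepatocyte markers was 75758 to 112699 in every mouse, whereas the sums for adipocyte, skeletal muscle and pancreas markers stayed at or under 1.25, 0.27 and 2.25 TPM, with Adipoq and Plin1 at 0 in all NASH and NASH+Exercise mice. For 12 macrophage markers the summed TPM lay between 138 and 282 in the control mice, between 1661 and 2165 in the NASH mice and between 1087 and 1387 in the exercised mice. In a bulk liver sample, fewer cells of a type and less RNA of a gene per cell cannot be told apart.

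Nearly the whole set was up-regulated in the livers of NASH mice. In NASH against Control, 9 of the 10 genes were up-regulated (edgeR's quasi-likelihood test, Benjamini-Hochberg adjusted p under 0.05 and log2 fold change (log2FC) above 1), a call that 15.3% of all genes tested received. The median log2FC of the 10 genes was 3.95, and that of all genes tested was 0.01. All 10 genes were higher in each NASH mouse than in any control mouse, which held for 27.4% of all genes. Fabp5 was the gene that missed the call, with a log2FC of 1.77 and an adjusted p of 0.0616. The lowest and highest changes among the called genes were those of Cd9 (log2FC 1.16) and Gpnmb (log2FC 8.40), and the latter was first of the 13620 genes by log2FC.

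With exercise, 0 of the 10 genes changed by the same rule, against 0.14% of all genes called in either direction and 0.0367% called lower. Of the 10 log2FC values in NASH+Exercise against NASH, 9 were below 0, as were 54.9% of those of all genes, and their median was -0.88 beside -0.03 over all genes. An unadjusted p under 0.05 was reached by 6 of the 10 genes, all lower, and by 10.6% of all genes in that direction. DESeq2, the tool named in the study's methods and run here on the 6 mice of this comparison, called 1 of the 10 genes lower. This was Cd63, beside 0.943% of all genes that it tested. With limma on log2(TPM + 1), 2 genes were called lower, Cd9 and Cd63, and 0.624% of all genes. The calls of DESeq2 also need the fold threshold, and by its adjusted p alone 3 genes were under 0.05, Cd9, Cd63 and Lgals3. In NASH+Exercise against Control, 9 of the 10 genes were up-regulated and 10.4% of all genes were called higher, 9 were higher in every exercised mouse than in any control mouse (21.5% of all genes), with a median log2FC of 3.21 for the 10 genes and 0.00 for all. The comparisons share mice, so that their values stand side by side below and are not independent of each other.

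**Figure D1:**
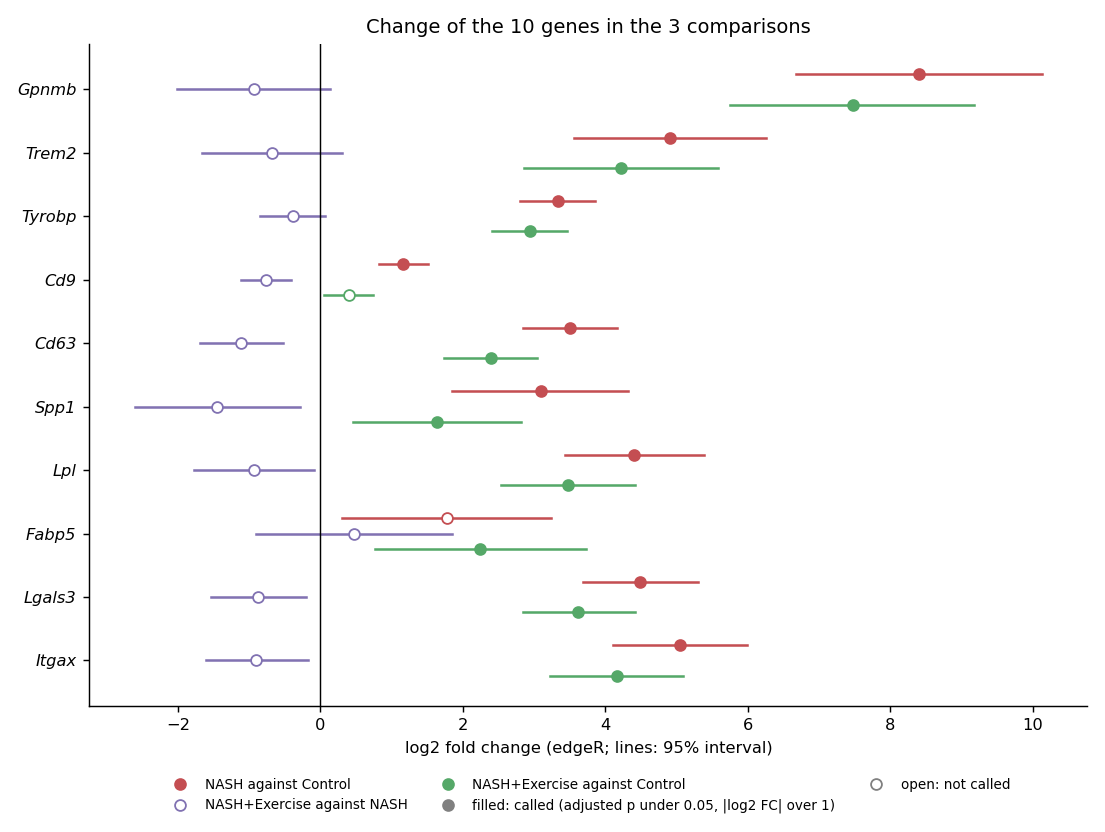
The horizontal axis gives the log2 fold change from edgeR and each row is a gene, with a point and a 95% interval for each of the 3 comparisons (3 mice per group); filled points passed the call and open points did not. The points against Control lie to the right of 0 for all 10 genes, and the NASH+Exercise against NASH points lie between -1.45 and 0.47 and are all open.

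Because 9 of the genes rose together in NASH, promoter sequences of 4 of them are shown, chosen for the motif letters they hold. RefSeq promoter windows (build GRCm38.p6, 250 bases before to 50 bases after an annotated start) were found for 7 of the 10 genes, 8 windows in all. None was held for Tyrobp, Lpl and Fabp5. Each window was searched on both strands for the AP-1 motif TGANTCA, the PU.1 box GAGGAAG, the E-box CACGTG and the core CATGTG of the M-box, the letters that factors of the MiT/TFE family bind. AP-1 letters stood in 3 of the 8 windows (Gpnmb, Itgax and Trem2) and in 7.81% of all 32851 windows, and PU.1 letters in 3 of the 8 (Cd63, Trem2 and 1 of the 2 Spp1 windows) and in 13.6% of all. The M-box core was found in the Cd9 window only and in 14.2% of all, and the E-box in 0 of the 8 and in 7.15% of all. In the 4 windows below, read 5′ to 3′ on the strand of the gene, capitals mark AP-1 letters in Gpnmb and Itgax, a PU.1 box in Spp1, and in Trem2 a PU.1 box on the opposite strand followed by AP-1 letters; the Gpnmb match lies 8 bases after the start of transcription, and the others 9 to 113 bases before it. A match is a run of letters and says nothing of binding.
Gpnmb, chr6:49036268-49036567, plus strand: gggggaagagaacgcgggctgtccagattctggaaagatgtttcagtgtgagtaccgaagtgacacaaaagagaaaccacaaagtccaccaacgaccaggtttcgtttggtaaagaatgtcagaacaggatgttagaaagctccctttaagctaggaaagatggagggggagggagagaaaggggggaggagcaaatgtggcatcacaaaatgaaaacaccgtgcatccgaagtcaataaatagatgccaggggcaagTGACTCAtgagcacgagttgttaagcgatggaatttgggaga
Trem2, chr17:48346151-48346450, plus strand: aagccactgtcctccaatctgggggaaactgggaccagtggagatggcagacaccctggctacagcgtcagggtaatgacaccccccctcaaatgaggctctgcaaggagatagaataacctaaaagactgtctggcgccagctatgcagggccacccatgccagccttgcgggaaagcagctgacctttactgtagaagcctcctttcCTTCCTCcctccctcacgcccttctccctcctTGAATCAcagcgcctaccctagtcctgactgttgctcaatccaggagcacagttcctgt
Itgax, chr7:128129300-128129599, plus strand: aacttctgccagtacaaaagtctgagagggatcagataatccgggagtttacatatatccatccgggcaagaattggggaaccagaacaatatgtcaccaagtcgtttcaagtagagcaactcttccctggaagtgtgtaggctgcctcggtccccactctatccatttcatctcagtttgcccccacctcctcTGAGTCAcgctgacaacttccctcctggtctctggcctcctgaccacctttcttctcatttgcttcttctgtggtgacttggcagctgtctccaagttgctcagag
Spp1, chr5:104434861-104435160, plus strand: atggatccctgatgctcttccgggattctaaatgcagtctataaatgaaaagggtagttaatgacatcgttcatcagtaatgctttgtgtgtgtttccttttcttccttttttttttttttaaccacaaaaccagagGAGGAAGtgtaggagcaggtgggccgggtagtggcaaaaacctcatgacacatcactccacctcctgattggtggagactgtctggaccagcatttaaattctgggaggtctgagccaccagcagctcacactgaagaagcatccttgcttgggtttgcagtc

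Trem2 and Tyrobp encode the receptor and its adaptor. Trem2 was at 0.268, 0.667 and 0.306 CPM in the 3 control mice (replicates 3, 4 and 29), at 6.23, 22.6 and 8.54 CPM in the NASH mice (replicates 5, 19 and 20) and at 8.3, 5.76 and 9.21 CPM in the NASH+Exercise mice (replicates 8, 18 and 22). The control values rest on 5, 12 and 6 reads. The NASH mice were all above the controls, 1 of them far above the other two, and the NASH+Exercise mice fell within or just under the range of the NASH mice. Trem2 rose in NASH by a log2FC of 4.91 ± 0.60 (SE, 3 mice per group, edgeR adjusted p = 0.000231), a fold of 30, and by 4.11 without NASH replicate 19. With exercise its log2FC was -0.68 (95% interval -1.67 to 0.30, adjusted p = 0.492). This value rested on NASH replicate 19, and without that mouse it was 0.09.

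Tyrobp was at 2.68, 5.11 and 5.77 CPM in Control, at 41.4, 50.4 and 44.8 CPM in NASH and at 38.5, 30.3 and 35.3 CPM in NASH+Exercise, with the replicates in the same order as above and in all that follows. The 3 groups did not overlap, and the NASH mice lay close together, with a coefficient of variation of 9.95%. Tyrobp rose in NASH by a log2FC of 3.33 ± 0.24 (adjusted p = 7.9e-06), the lowest adjusted p among the 10 genes. The log2FC with exercise was -0.39 (95% interval -0.85 to 0.07, adjusted p = 0.405). Against Control, Trem2 and Tyrobp of the exercised mice rose by log2FC values of 4.22 and 2.94.

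Gpnmb, a glycoprotein of lysosomal and melanosomal membranes, showed the widest contrast. It was at 0.429, 0.0556 and 0.408 CPM in the control mice, from 8, 1 and 8 reads. It reached 51.3, 190 and 70.8 CPM in NASH and 70, 32.3 and 61 CPM in NASH+Exercise. The gene was thus close to the limit of detection in control liver and readily counted in every mouse on the Ath diet, while the NASH and NASH+Exercise ranges overlapped. The fitted log2FC in NASH was 8.40 ± 0.77 (adjusted p = 4.91e-05), a fold of 338 that rests on few control reads, and the log2FC was 7.60 without NASH replicate 19 and 7.92 to 8.73 with 1 control mouse left out. With exercise the log2FC was -0.93 (95% interval -2.01 to 0.14, adjusted p = 0.388). It was -0.15 without NASH replicate 19 and -1.26 without NASH replicate 5. Against Control, NASH+Exercise mice were higher by a log2FC of 7.47 (adjusted p = 0.000154), the third highest of all genes tested.

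Cd63, a tetraspanin of late endosomes and lysosomes, was at 2.84, 3.67 and 3.47 CPM in Control, 26.2, 54.4 and 32.1 CPM in NASH, and 20.4, 13.4 and 18.5 CPM in NASH+Exercise. The exercised mice stood between the other groups with no overlap on either side. Cd63 rose in NASH by a log2FC of 3.50 ± 0.30 (adjusted p = 2.15e-05). Its log2FC with exercise was -1.11 (95% interval -1.69 to -0.53), but the edgeR adjusted p was 0.128, whereas DESeq2 gave -1.06 with an adjusted p of 0.0063 and limma on log2(TPM + 1) gave -1.33 with 0.0498. Without NASH replicate 19 the edgeR value was -0.72, and without NASH replicate 5 it was -1.31.

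Cd9, a tetraspanin of the cell surface, was already present in control liver at 27, 24 and 30.3 CPM. It was at 60.9, 66.1 and 55 CPM in NASH and 35.1, 42.9 and 29.2 CPM in NASH+Exercise. All exercised mice were below all NASH mice, and 1 of them was below the highest control mouse. Cd9 rose in NASH by a log2FC of 1.16 ± 0.16 (adjusted p = 0.00027), and in NASH+Exercise against Control it was the gene of the set that was not called (log2FC 0.40, adjusted p = 0.0886). Its log2FC with exercise was -0.76 (95% interval -1.11 to -0.42) with an adjusted p of 0.108, the lowest of the 10 genes in this comparison. DESeq2 gave -0.72 with an adjusted p of 0.00261, and limma on log2(TPM + 1) gave -1.06 with 0.044. Reads of Cd63, and of Fabp5 below, may be shared with pseudogene copies that RefSeq lists for these genes and that have no values of their own here, so that their levels carry this uncertainty.

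Lpl encodes lipoprotein lipase, which frees fatty acids from circulating triglyceride and is scarce in hepatocytes of adult mice. It was at 10.9, 7.34 and 17.4 CPM in Control, 221, 371 and 165 CPM in NASH, and 150, 161 and 85.7 CPM in NASH+Exercise. The 3 groups did not overlap, although NASH replicate 20 and NASH+Exercise replicate 18 nearly met. Lpl rose in NASH by a log2FC of 4.40 ± 0.43 (adjusted p = 6.8e-05) and stayed up in NASH+Exercise against Control (log2FC 3.47, adjusted p = 0.000338). The log2FC between the diet groups was -0.93 (95% interval -1.77 to -0.09, adjusted p = 0.282).

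Fabp5, a carrier of fatty acids inside cells, had the highest coefficient of variation of CPM between the control mice in the set, at 106%. It was at 1.66, 3.61 and 14.8 CPM in Control, 15.2, 31.6 and 22.4 CPM in NASH, and 27.1, 22.2 and 46.6 CPM in NASH+Exercise. Control replicate 29 came close to the lowest NASH mouse, and the control values differed by a factor of 8.92 between the highest and the lowest mouse. The log2FC in NASH was 1.77 ± 0.65 (adjusted p = 0.0616), and 3.08 with an adjusted p of 0.00264 without Control replicate 29. Fabp5 was the only member whose estimate with exercise was above 0, at 0.47 (95% interval -0.91 to 1.85, adjusted p = 0.769). Against Control, NASH+Exercise mice were called higher (log2FC 2.24, adjusted p = 0.0343), a call that was lost in 9 of 18 alternative analyses.

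Spp1 encodes osteopontin, a secreted ligand of integrins and CD44. It was at 16.5, 20.7 and 23 CPM in Control, 83.2, 341 and 87.3 CPM in NASH, and 85.7, 45.6 and 56.3 CPM in NASH+Exercise. NASH replicate 19 was about 4.1 times the lowest NASH mouse, and NASH+Exercise replicate 8 lay among the other NASH mice. Spp1 rose in NASH by a log2FC of 3.09 ± 0.55 (adjusted p = 0.00225), or 2.05 without NASH replicate 19. Its estimate with exercise was the lowest of the set at -1.45 (95% interval -2.61 to -0.29, adjusted p = 0.244), and -0.43 without that mouse. The call in NASH+Exercise against Control (log2FC 1.64, adjusted p = 0.0484) sat at the threshold and was lost in 8 of 18 alternative analyses. The summed TPM of 7 cholangiocyte markers was likewise highest in NASH replicate 19, at 47.9, 81.1 and 34.6 in the NASH mice beside 25.9 to 30 in Control and 22.9 to 39.6 in NASH+Exercise, and the part of bile duct cells in the Spp1 values was not tested.

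Lgals3 encodes galectin-3, a lectin that binds galactosides and is abundant in activated macrophages. It was at 1.88, 3.5 and 4.9 CPM in Control, 53.9, 105 and 74.2 CPM in NASH, and 51.2, 35.6 and 40.4 CPM in NASH+Exercise, with no overlap between groups. It rose in NASH by a log2FC of 4.49 ± 0.36 (adjusted p = 1.97e-05) and was higher in NASH+Exercise than in Control by 3.62 (adjusted p = 0.0001). The log2FC with exercise was -0.87 (95% interval -1.54 to -0.20, adjusted p = 0.231), and DESeq2 gave -0.82 with an adjusted p of 0.0219. Itgax, which pairs with the integrin chain ITGB2 and is used as a marker of dendritic cells and of some macrophages, was at 0.59, 1.06 and 0.969 CPM in Control, 22.3, 36.7 and 28.4 CPM in NASH and 24.5, 12.6 and 9.85 CPM in NASH+Exercise. Of the exercised mice, replicate 8 stood within the NASH range and the other two were below it. Itgax rose in NASH by a log2FC of 5.05 ± 0.42 (adjusted p = 2.35e-05), second in the set after Gpnmb, and its log2FC with exercise was -0.90 (95% interval -1.61 to -0.18, adjusted p = 0.241). In all, 5 genes were lower in every NASH+Exercise mouse than in every NASH mouse (Tyrobp, Cd9, Cd63, Lpl and Lgals3), which held for 14.9% of all genes.

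**Figure D2:**
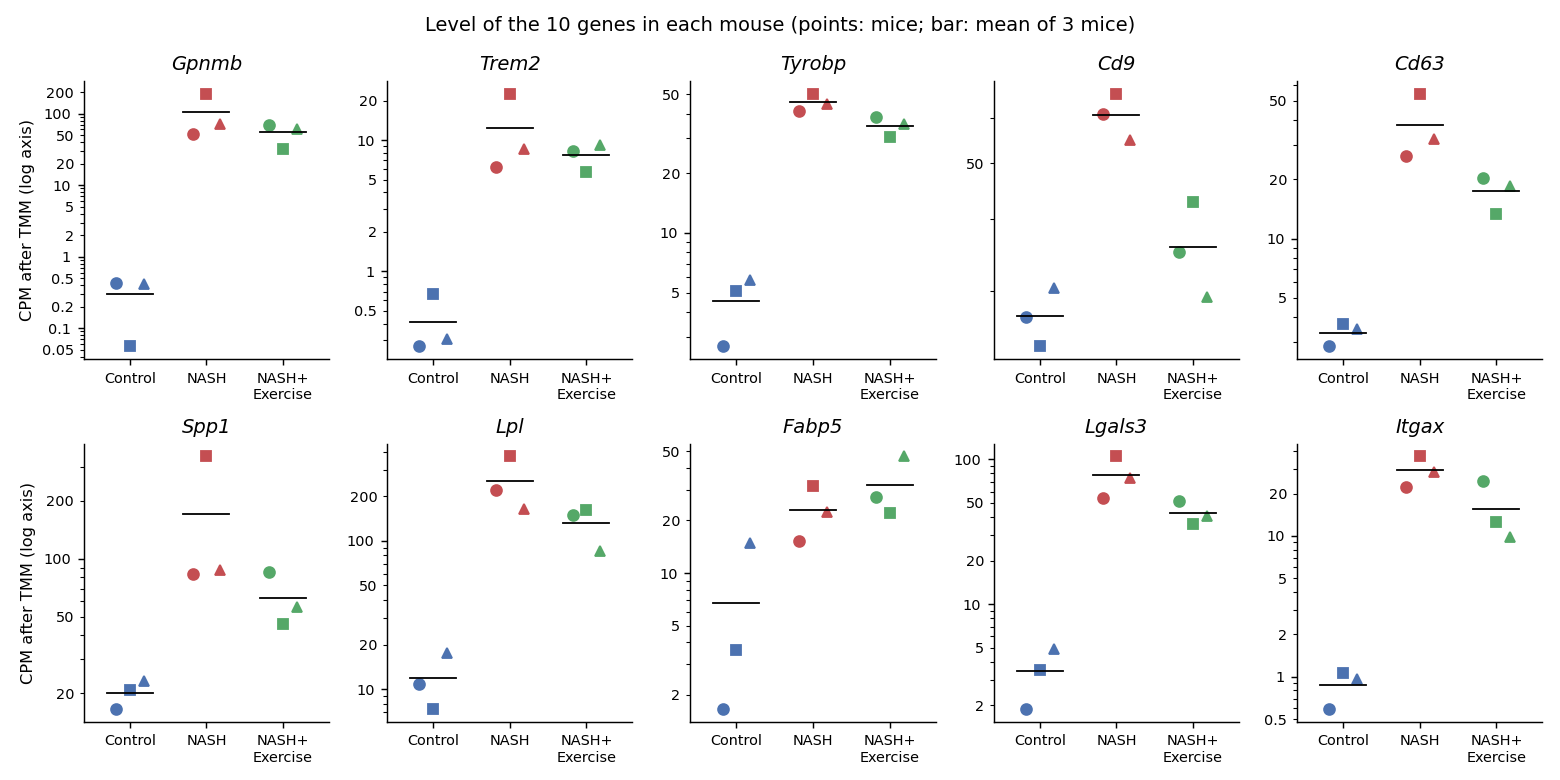
Each panel is a gene, with CPM after TMM on a logarithmic vertical axis and the 3 groups on the horizontal axis; points are mice, shaped by their order within the group, and bars are means of 3 mice. All NASH points lie above all Control points in each of the 10 panels, and NASH and NASH+Exercise points overlap in 5 panels (Gpnmb, Trem2, Spp1, Fabp5 and Itgax).

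Set on a scale per transcript length, the order of the genes differed between groups. In Control, Cd9 had the highest mean at 34.5 ± 8.65 TPM (SD, n = 3), followed by Spp1 at 21.2 ± 5.39 TPM, and Gpnmb had the lowest at 0.123 ± 0.0896 TPM. In NASH the order began with Spp1 at 251 ± 233 TPM, Tyrobp at 168 ± 27.6 TPM and Lpl at 126 ± 61.9 TPM, and ended with Trem2 at 23.7 ± 18.4 TPM and Itgax at 14.5 ± 4.5 TPM. Each gene in this NASH order overlapped in range with its neighbour. Compared within each mouse, Tyrobp exceeded Lpl, Cd63 exceeded Gpnmb, Fabp5 exceeded Trem2 and Trem2 exceeded Itgax in 3 of 3 mice, while Spp1 exceeded Tyrobp, and Gpnmb exceeded Fabp5, in 1 of 3. Tyrobp led in NASH+Exercise at 105 ± 21.7 TPM, and Itgax was again the lowest at 6.49 ± 3.97 TPM. In Control the ranges of neighbours parted at 2 places, between Lgals3 and Trem2 and between Itgax and Gpnmb. Gpnmb thus held rank 10 in Control, rank 7 in NASH and rank 8 in NASH+Exercise. The adaptor Tyrobp had a higher mean TPM than its receptor Trem2 in all 3 groups.

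The mice of the NASH group kept the same order for much of the set. NASH replicate 19 had the highest CPM of its group for 10 of the 10 genes, whereas it was the highest for 34.8% of all genes tested. The summed TPM of the 10 genes was 684, 1577 and 718 in the NASH mice, 73.6, 73.7 and 136 in Control and 583, 393 and 405 in NASH+Exercise. The highest of the exercised mice was replicate 8 for 6 of the 10 genes and for 37.6% of all genes. The lowest was replicate 18 for 7 of the 10, and the share of all genes for which it was the lowest was not computed. Replicate 19 also had the highest sum of pan-macrophage markers in its group (2165 TPM beside 1739 and 1661, or 1240 CPM beside 1148 and 1125) but the lowest level of Adgre1 (24 CPM beside 37.2 and 31.4), the highest sum of cholangiocyte markers, and the lowest sums of Kupffer cell markers (419 TPM beside 665 and 526) and of hepatocyte markers (89143 TPM beside 110094 and 110055). Their part in its values was not tested. Leaving out a mouse that was the highest for all 10 genes lowers their NASH means, so an upward shift of these log2FC values follows by construction. Without this mouse the log2FC in NASH+Exercise against NASH was nearer to 0 but still below it for 8 of the 10 genes. Among them were Tyrobp at -0.29, Lpl at -0.53, Lgals3 at -0.58, and Cd9 and Itgax at -0.68. The value turned to 0.09 for Trem2, and was 0.79 for Fabp5. The changes in NASH against Control remained called for the same 9 genes without replicate 19.

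**Figure D3:**
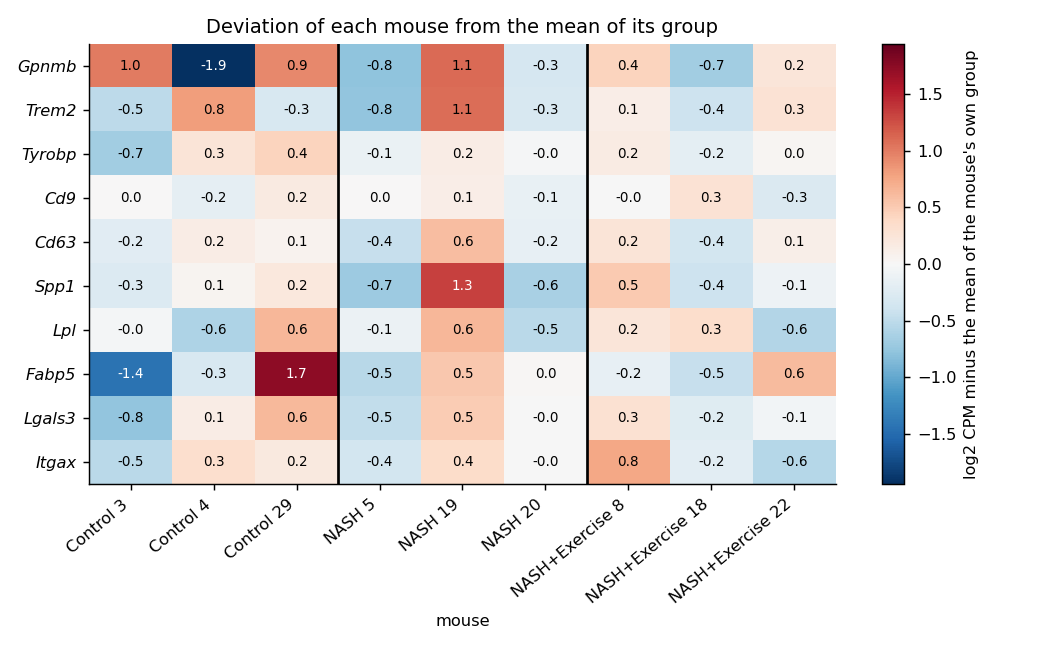
Rows are the 10 genes and columns the 9 mice, and each cell gives the log2 CPM of the mouse minus the mean of its own group. The column of NASH replicate 19 is above 0 for all 10 genes, reaching 1.33 for Spp1, and the control column of replicate 29 reaches 1.73 for Fabp5.

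To ask how far the set followed macrophage markers as a whole, each gene was divided by the summed CPM of 12 pan-macrophage markers of the same mouse (among them Adgre1, Cd68, Csf1r, Lyz2 and C1qa). That sum was 148, 188 and 282 CPM in Control, 1148, 1240 and 1125 CPM in NASH, and 972, 845 and 981 CPM in NASH+Exercise. Relative to it, 7 genes were higher in every NASH mouse than in every control mouse, as were 1.41% of all genes. That share is small by construction, because the sum itself rose in NASH. The same ratio was not computed for the other gene lists. The differences of these 7 genes on the log2 scale were 5.44 for Gpnmb, 2.36 for Itgax, 1.95 for Lgals3, 1.91 for Trem2, 1.85 for Lpl, 0.84 for Cd63 and 0.81 for Tyrobp. The size of several of them hung on the settings: with a pseudocount of 1 CPM in place of 0.1 the differences were 3.56 for Gpnmb, 1.43 for Itgax, 0.51 for Trem2 and 0.54 for Cd63, and with Adgre1 alone as the denominator those of Cd63 and Tyrobp were 0.46 and 0.43. Gpnmb went from 0.155 ± 0.131% of the macrophage sum in Control to 8.69 ± 5.8% in NASH (SD, n = 3), and Tyrobp from 2.19 ± 0.471% to 3.88 ± 0.243%. Spp1 (0.20) and Fabp5 (-0.29) overlapped between the groups, and Cd9 was lower in every NASH mouse (-1.39), as were 90.7% of all genes. The exact two-sided permutation test gave p = 0.1 for each of the 8 genes without overlap, which is the smallest p that 3 mice against 3 allow.

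Between NASH and NASH+Exercise the ratios of 8 genes to the macrophage markers overlapped, Tyrobp differing by -0.06 and Trem2 by -0.15 on the log2 scale. Cd63 was lower in every exercised mouse (-0.73, 4.05% of all genes) and Fabp5 was higher (0.79, 39% of all genes), each with p = 0.1 in the exact permutation test. The remaining differences ranged from -0.83 for Spp1 to -0.44 for Gpnmb. In NASH+Exercise against Control, 6 genes were higher without overlap relative to the macrophage markers (0.705% of all genes). Among them were Gpnmb by 4.99, Trem2 by 1.76 and Itgax by 1.71. Cd63 differed by 0.11 and overlapped, and Cd9 was lower without overlap (-1.84, 91% of all genes). The shares in this comparison with Control again follow from the rise of the sum. Those between NASH and NASH+Exercise are tilted by its fall, as the sum was lower in every exercised mouse than in every NASH mouse. Without the division, 14.9% of all genes were lower without overlap in NASH+Exercise than in NASH and 9.18% were higher.

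**Figure D4:**
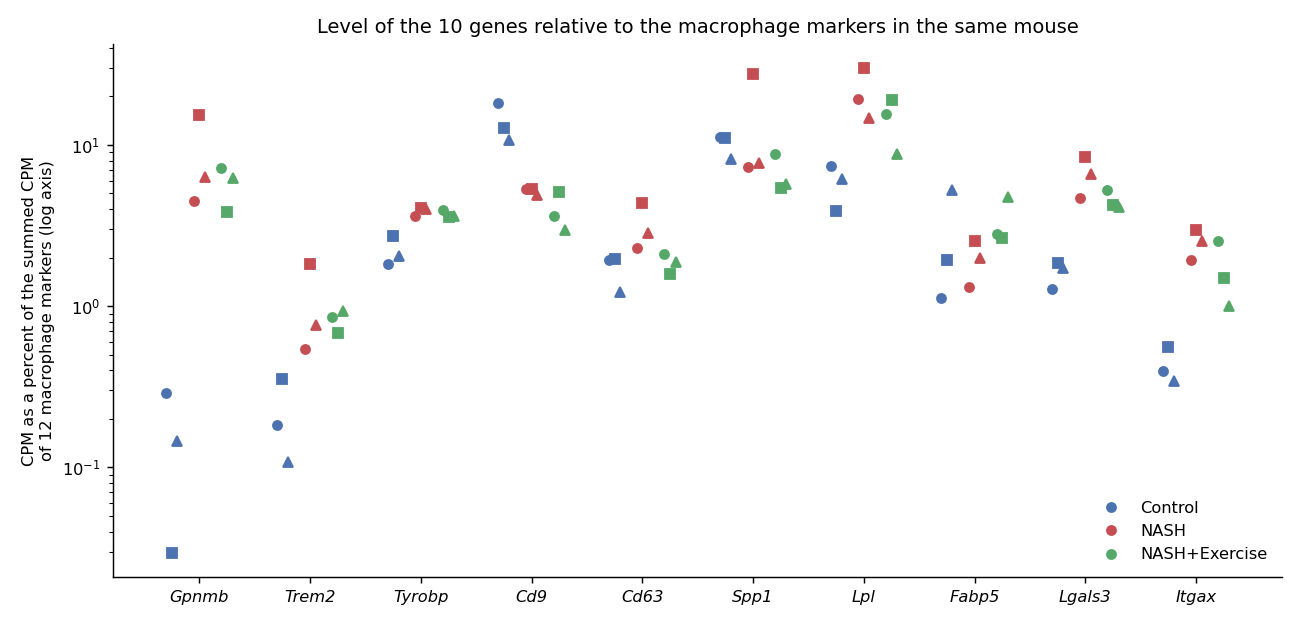
The logarithmic vertical axis gives the CPM of each gene as a percent of the summed CPM of 12 macrophage markers in the same mouse, and points are mice coloured by group. Gpnmb, Trem2, Tyrobp, Lpl, Lgals3 and Itgax lie higher in both Ath diet groups than in Control, and Cd63 does so in NASH alone. Cd9 lies lower, and Spp1 and Fabp5 mix.

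Of 17 genes that carry or restrain the signal of DAP12, 12 were up-regulated in NASH against Control, with a median log2FC of 2.68, among them the kinases Btk and Fgr (log2FC 3.12 each) and Syk, the kinase that docks on DAP12 (log2FC 2.69, adjusted p = 8.72e-06). The adaptors Grb2 (0.26) and Bcl10 (0.35) were not called. In this comparison 15.3% of all genes tested were called higher. All 6 tested receptors that use DAP12 besides TREM2 rose, with a median of 3.52, such as Sirpb1a (5.22), whose reads may be shared with close copies, and Cd300lb (2.95), and the seventh, Trem3, was listed at 0 in every control mouse and was not tested. Among 5 genes for ligands or shedding of TREM2, Ms4a4a alone was called (3.95). Apoe, a lipoprotein that TREM2 binds and one of the most abundant liver transcripts, had a log2FC of -0.31 (adjusted p = 0.267). Its TPM, which are not scaled by TMM, were 29024 ± 2137 in Control and 32153 ± 2384 in NASH, so the direction differed between the measures. None of these genes was called in NASH+Exercise against NASH, where 0.14% of all genes were called. The medians of the signalling genes and of the other receptors were -0.48 and -0.39 in that comparison.

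Of 26 further genes reported in lipid-associated macrophages, 13 were called higher and 2 lower in NASH, beside 15.3% and 3.02% of all genes. Their median log2FC was 1.06. Mmp12, the macrophage elastase, which rose by 7.48, and Ms4a7, a membrane protein of macrophages, had the highest log2FC values. Plin2, which coats lipid droplets in hepatocytes and macrophages alike, fell by a log2FC of 1.93, and Nceh1, a cholesterol ester hydrolase, fell by 1.29. In TPM, which are not scaled by TMM, Plin2 was at 1387 ± 373 in Control and 478 ± 83.8 in NASH. With exercise 0 of the 26 were called, beside 0.14% of all genes, and their median was -0.55. The factors of the MiT/TFE family, which drive lysosomal genes, were split, as Tfec rose (2.18, adjusted p = 0.00025) and Mitf (0.77, adjusted p = 0.0115), Tfeb (0.31) and Tfe3 (0.05) stayed under the fold threshold.

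The counts that follow are of calls in NASH against Control, which 15.3% of all genes received as higher and 3.02% as lower. Of 8 further tetraspanins, 3 rose, Cd53 (3.23), Tspan8 (3.09) and Cd37 (1.89, named after its value was seen), and the median was 0.16, with Cd81 at 0.08. Of 11 genes that mature, anchor or inhibit lipoprotein lipase or act beside it, 0 rose and 2 fell, the inhibitor Angptl4 (-1.56) and the endothelial lipase Lipg (-2.51), and Gpihbp1, which holds LPL on capillaries, was at 0.39 with an adjusted p of 0.35. Among fatty acid binding proteins, Fabp7 (1.48) and Fabp4 (1.25) rose and Fabp1, the main form of hepatocytes, fell by 1.36, with Fabp2 at 0.71. Of 5 tested galectins and galectin ligands, Lgals3bp (1.01) rose and Lgals4 fell by 1.75, while Lgals1 had a log2FC of 0.83 and an adjusted p of 0.0564. Of 11 integrin genes and osteopontin receptors, 7 rose, including Itgb2, the chain that pairs with ITGAX (3.71, adjusted p = 7.9e-06), and Itgam, another alpha chain that pairs with ITGB2 (3.78), and Itgb1 was at 0.12.

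Markers of several cell types moved in the same direction in NASH, and their part in the values of the set was not tested. In NASH against Control 15.3% of all genes were called higher and 3.02% lower. Of the 12 pan-macrophage markers 10 rose, with a median log2FC of 2.82, Lyz2 (3.97) and Fcgr1 (3.66) leading and Mertk (0.94) not called. Adgre1, which encodes F4/80, rose by 2.87 and Cd68 by 3.35. Of 7 Kupffer cell markers 5 rose, Clec4f by 1.48, and Timd4, a marker of the resident cells, had a log2FC of 1.48 and an adjusted p of 0.0808. All 5 monocyte markers rose (median 4.11, Ccr2 4.13), as did 5 of 7 dendritic cell markers (median 1.21), 5 of 7 neutrophil markers (median 2.91, S100a8 4.49), all 5 T cell markers (median 2.07) and 3 of 4 tested NK cell markers (median 1.87). Of 6 tested cholangiocyte markers 3 rose, Krt19 (1.85), Epcam (1.74) and Pkhd1 (1.28, named after its value was seen). Only 1 of 6 stellate cell and 1 of 6 sinusoidal endothelial markers rose, which is near the share over all genes. Of the B cell markers 0 of 4 were called, and 1 of 8 hepatocyte markers, Cyp2e1, fell. No marker of any of these cell types was called in NASH+Exercise against NASH, where 0.14% of all genes were called. With that share, lists this short would rarely hold a call. The medians there were -0.37 for pan-macrophage, -0.16 for Kupffer cell, -0.96 for monocyte and -1.63 for NK cell markers. They were -0.74 for B cell, -0.68 for T cell, -0.63 for dendritic cell and -0.20 for neutrophil markers. Cholangiocyte markers had a median of -0.84, stellate cell markers -0.27, sinusoidal endothelial markers -0.25 and hepatocyte markers 0.25.

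**Figure D5:**
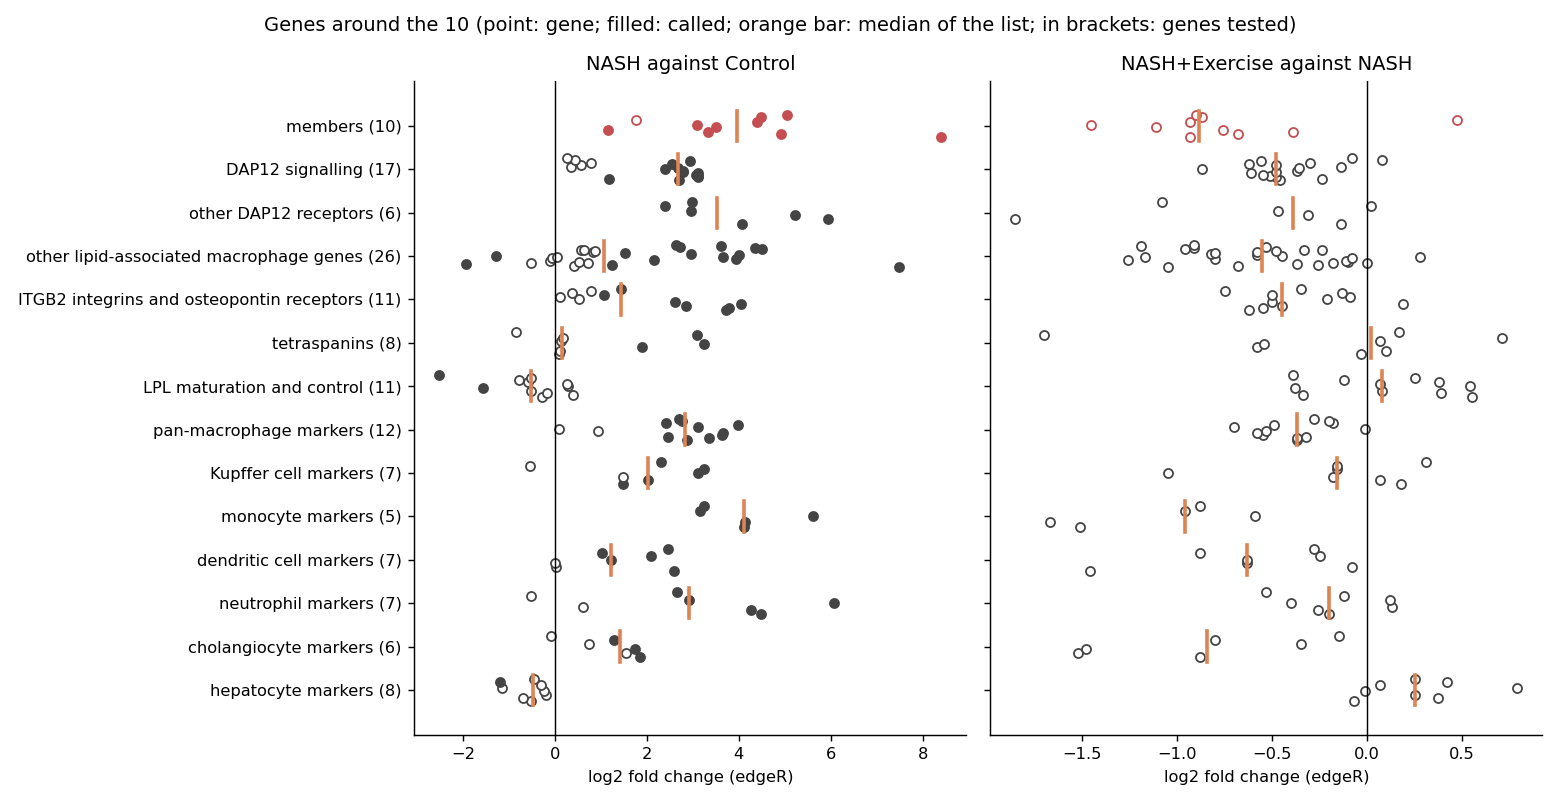
Each row is a gene list with the number of genes tested in brackets, the horizontal axes give the log2 fold change from edgeR in NASH against Control (left) and NASH+Exercise against NASH (right), points are genes, filled when called, and bars are medians. On the left the median of the 10 genes (3.95) lies beside those of monocyte markers (4.11) and other DAP12 receptors (3.52), and on the right every point is open.

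Over all 9 mice, the genes outside the set whose profile was most like that of Gpnmb were Mmp12, Lcn2 and Ngp, with a root mean square difference of 0.722, 0.969 and 1.22 in centred log2 CPM among 13610 candidates. Mmp12 went from 0.18 ± 0.06 TPM in Control to 50.8 ± 25.5 TPM in NASH and 20.2 ± 10.6 TPM in NASH+Exercise. Lcn2, a secreted protein that binds siderophores, was at 8.17 ± 3.31, 1040 ± 465 and 679 ± 351 TPM. For Trem2 the closest were Capg, an actin-capping protein (0.444), Arhgap22 (0.475) and Smpd3, a sphingomyelinase (0.512), and Capg was at 1.61 ± 0.367, 35.9 ± 11.4 and 19.4 ± 1.45 TPM in the 3 groups. Within the set the closest pair was Lgals3 and Itgax (0.34), and the farthest was Gpnmb and Cd9 (3.32). By construction, genes with a like difference between the Ath diet groups and Control are close by this measure.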

How the data were processed

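Liver mRNA libraries of 9 mice, 1 per mouse and 3 per group, were used, so that p-values reflect the spread between mice. Per the labels, the submitters' processing notes name HISAT2 2.1.0, Bowtie2 2.2.5 and RSEM 1.2.8 and the build GRCm38.p6. The authors deposited estimated counts, without normalization and partly not whole, and TPM values; the FPKM values that the authors also deposited were not used. Counts were rounded. Library totals were 20086004 to 22495449, and values from few reads carry counting error beside the spread between mice. The file of NASH replicate 5 repeats values of the other mice (428304 compared, 0 differing). A RefSeq table of GRCm38.p6 gave symbols for 17728 identifiers.

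Counts were tested with edgeR 4.0.16 in R 4.3.3 (filterByExpr by group, minimum count 10, TMM, robust quasi-likelihood fit of all 9 mice, 6 residual degrees of freedom, Benjamini-Hochberg over 13620 genes). As in the study's methods, a call required both an adjusted p under 0.05 and a log2 fold change above 1 in absolute value. The study applied these thresholds with DESeq2, which is an alternative here. The scripts were tested on simulated data. Alternatives were DESeq2 1.42.0 and limma 3.58.1 on log2 TPM, other scalings and filters, and each mouse left out. Ratios to macrophage markers used log2(CPM + 0.1) and exact two-sided permutation tests in scipy 1.17.1. Named are all 10 genes, for each other list up to 2 genes from either end of the log2 fold changes in NASH against Control together with a few defining genes, and the 3 nearest genes of Gpnmb and of Trem2. The genes and lists were chosen with earlier results of these data known.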

Additional observations from a re-analysis of the deposited data

How the results depend on the processing

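No paired analysis was possible because the groups share no replicate numbers. When single mice were left out, the number of genes of the set called was 9 to 10 in NASH against Control, 0 to 0 in NASH+Exercise against NASH and 7 to 9 in NASH+Exercise against Control. In NASH+Exercise against NASH it was 1 with DESeq2 and 2 with limma on log2(TPM + 1). Of the log2 fold changes of single genes, 1 reversed, that of Trem2 in NASH+Exercise against NASH, at 0.09 without NASH replicate 19 (adjusted p = 0.953, with 0.24 to 0.953 over its alternatives), and -1 without NASH replicate 5. In NASH against Control 175 of the values for single genes kept their direction and their side of the threshold and 5 came past it, all of Fabp5; in NASH+Exercise against NASH 176 did and 3 came past it; in NASH+Exercise against Control 163 did and 17 were lost, 8 of Spp1 and 9 of Fabp5. The ratios to macrophage markers reversed for Spp1 in NASH against Control (-0.18 with Adgre1 as the denominator, -0.42 to 0.54 with single mice left out, the former without NASH replicate 19) and for Fabp5 (-0.77 to 0.30, the latter without Control replicate 29), for Gpnmb and Trem2 in NASH+Exercise against NASH (-0.82 to 0.07 and -0.52 to 0.35, the higher values without NASH replicate 19), and for Cd63 in NASH+Exercise against Control (-0.23 with Adgre1, -0.15 with a pseudocount of 1 CPM, -0.11 to 0.22 with single mice left out, the former without Control replicate 29). The cause of these changes was not tested.

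Over all genes, 2494 were called in NASH against Control and 4844 by adjusted p alone. In NASH+Exercise against NASH 19 were called, 205 with DESeq2, 110 with limma on log2(TPM + 1) and 0 to 34 with a mouse left out. In NASH+Exercise against Control 1836 were called, 1068 with that limma fit and 3422 by adjusted p alone. Library size alone moved the median over all genes from 0.01, -0.03 and 0.00 to 0.36, -0.23 and 0.15 in the 3 comparisons, and no gene of the set changed direction under it. With 3 mice per group, the 95% intervals of Gpnmb, Trem2, Tyrobp and Fabp5 in NASH+Exercise against NASH include 0, and control levels of Gpnmb and Trem2 rest on 1 to 12 reads per library.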
